A study of Homo sapiens with 13 samples.

Results

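Genes of fatty acid synthesis and desaturation were examined in a table of gene counts from human osteoblasts. There were 10 of them, SREBF1, ACLY, ACSS2, ACACA, FASN, SCD, ELOVL6, FADS1, FADS2 and LPIN1, chosen by symbol from the 43836 genes of the table, and all 10 had enough reads to be among the 17092 genes tested. The cells were hFOB 1.19, a human fetal osteoblast line immortalized with a temperature-sensitive viral antigen, so that every library came from 1 cell line. Positive controls received medium with 10% fetal bovine serum and negative controls medium without it, both with DMSO as the solvent. Serum-starved cells of the remaining groups were treated with 1 µg/mL of RES (resveratrol, a stilbene), POG (peonidin-3-O-glucoside, an anthocyanin carrying a sugar) or DEG, a short name that the labels leave unexplained. Poly(A) RNA was sequenced in 2 positive control, 2 negative control, 3 RES, 3 POG and 2 DEG libraries, and a further labelled DEG sample was not analysed here.

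Cells build fatty acids in the cytosol from acetyl-CoA, which ACLY makes from citrate and ACSS2 from acetate. ACACA carboxylates acetyl-CoA to malonyl-CoA, FASN joins these units into palmitate, ELOVL6 lengthens palmitate, SCD puts the first double bond into saturated chains, and FADS2 and FADS1 act in turn on the path to long polyunsaturated fatty acids. LPIN1 removes the phosphate from phosphatidate, a step toward triglycerides and phospholipids. Many of these genes are targets of the sterol regulatory element-binding proteins, membrane-bound transcription factors encoded by SREBF1 and SREBF2 that are released when cell sterols are low and held back by INSIG proteins when sterols are plentiful.

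Promoter windows are shown for the 5 members (SREBF1, ACLY, ACSS2, SCD and FADS1) with a call in a compound comparison that was kept under every alternative. Each runs from 250 bases before to 50 bases after a RefSeq gene start (build GRCh38.p14) and is written 5′ to 3′ on the strand of the gene, with capitals marking the CCAAT box (CCAAT, or ATTGG for a match on the other strand) and the GC box (GGGCGG, or CCGCCC on the other strand). The SREBF1 window is chr17:17836937-17837236 on the minus strand, the SCD window chr10:100346983-100347282 on the plus strand, the ACLY window chr17:41918902-41919201 on the minus strand, the ACSS2 window chr20:34876362-34876661 on the plus strand and the FADS1 window chr11:61816954-61817253 on the minus strand.
SREBF1: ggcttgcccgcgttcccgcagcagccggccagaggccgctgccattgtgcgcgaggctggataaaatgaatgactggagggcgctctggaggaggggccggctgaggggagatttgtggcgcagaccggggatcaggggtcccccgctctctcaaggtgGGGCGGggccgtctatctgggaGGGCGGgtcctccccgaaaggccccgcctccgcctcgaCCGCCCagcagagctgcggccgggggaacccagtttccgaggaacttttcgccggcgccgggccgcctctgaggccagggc
SCD: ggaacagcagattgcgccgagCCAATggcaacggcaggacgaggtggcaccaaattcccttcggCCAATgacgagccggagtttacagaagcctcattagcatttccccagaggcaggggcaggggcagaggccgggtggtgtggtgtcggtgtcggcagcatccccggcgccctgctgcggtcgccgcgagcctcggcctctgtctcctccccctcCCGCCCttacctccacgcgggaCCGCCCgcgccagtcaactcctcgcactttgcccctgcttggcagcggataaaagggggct
ACLY: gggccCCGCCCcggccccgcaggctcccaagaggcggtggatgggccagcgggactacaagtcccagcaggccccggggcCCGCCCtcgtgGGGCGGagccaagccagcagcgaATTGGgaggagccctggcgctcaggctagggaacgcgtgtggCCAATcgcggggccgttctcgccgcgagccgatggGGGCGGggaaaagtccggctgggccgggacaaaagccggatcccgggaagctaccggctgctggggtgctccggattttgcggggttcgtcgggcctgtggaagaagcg
ACSS2: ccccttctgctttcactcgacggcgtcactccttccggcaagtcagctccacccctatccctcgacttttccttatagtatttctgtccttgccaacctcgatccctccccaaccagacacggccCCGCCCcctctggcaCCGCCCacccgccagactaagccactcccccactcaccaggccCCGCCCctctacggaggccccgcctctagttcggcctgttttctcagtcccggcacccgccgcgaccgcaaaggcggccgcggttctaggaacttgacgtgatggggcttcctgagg
FADS1: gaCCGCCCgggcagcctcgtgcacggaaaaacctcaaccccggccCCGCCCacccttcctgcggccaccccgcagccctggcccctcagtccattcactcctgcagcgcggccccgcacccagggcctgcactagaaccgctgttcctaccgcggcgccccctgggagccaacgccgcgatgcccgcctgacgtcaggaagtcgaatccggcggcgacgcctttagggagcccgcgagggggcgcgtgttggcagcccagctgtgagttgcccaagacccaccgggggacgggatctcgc

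RefSeq windows were at hand for 9 of the 10 members, all but FASN, so the counts below say nothing of the FASN promoter. There were 16 windows in all, since some genes have several starts. A GC box lay in 13 of the 16 windows and in at least 1 window of all 9 members, while 45% of the 35116 promoter windows of all genes held one. A CCAAT box lay in 7 of the 16 windows and in 5 members (ACACA, ACLY, SCD, FADS2 and ACSS2), against 34.6% of all windows. The letters of the E-box (CACGTG, in 7.26% of all windows) and of a sterol regulatory element core (TCACNCCAC, in 1.13%) were in none of the 16. All 4 motifs were searched on both strands, and in ACACA some GC boxes overlapped each other. The ACLY windows overlap, so the same boxes count in both. The shares of all genes are per window and compare with the counts of windows, not with those of members.

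Libraries held 38464619 to 51416358 counted reads, and mitochondrial genes took 3.03% to 3.92% of them. Nothing in the labels says that libraries of a group came from separate cultures, so p-values measure the spread between these libraries, which may be technical. The positive control pair stood apart from the rest, with a squared difference over all genes of 10.4 times the sampling noise, against 2.05 to 2.62 in the other 8 pairs, although over the 10 members its ratio of 6.77 lay within the 1.32 to 7.54 of the other pairs. Levels are given as CPM, the read count relative to the library total after TMM scaling. Of the osteoblast markers COL1A1 (2463 to 2868 CPM), COL1A2 (1112 to 1420), SPARC (1019 to 1177) and RUNX2 (44.3 to 51.6 CPM) were clearly present in every library, whereas SP7 stayed at or below 0.181 CPM and IBSP had 1 read in all libraries. ALPL lay at 3.22 to 6.66 CPM, SPP1 at 0.954 to 2.34, BGLAP at 0.425 to 2.00 and PHEX at or below 0.409 CPM. Since these are bulk samples, fewer cells of a type and less RNA per cell cannot be told apart.

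Because fat cells express many of these genes strongly, the adipocyte markers were read in every library. ADIPOQ had 1 read in all 12 libraries together, FABP4 had 3, and LEP and LPL had none, while PPARG lay at 8.47 to 12.4 CPM. The summed level of the 8 adipocyte markers, most of it PPARG, was 12.0 to 13.6 CPM in positive controls, 10.2 to 11.5 in negative controls, 10.0 to 11.7 in RES, 9.42 to 11.4 in POG and 11.4 to 12.2 in DEG. The 4 leukocyte markers summed to 0.612 to 1.74 CPM. Of the 4 epithelial markers EPCAM, CDH1 and KRT5 stayed at or below 0.545 CPM, while KRT8 made up nearly all of their sum, which was 262 to 286 CPM in positive controls, 214 to 216 in negative controls, 239.8 to 244 in RES, 181 to 188 in POG and 194 to 195 in DEG. The 10 osteoblast markers, with COL1A1, COL1A2 and SPARC making up nearly all of their sum, summed to 5460 to 5522 CPM in positive controls, 5262 to 5319 in negative controls, 4906 to 5033 in RES, 4750 to 4785 in POG and 4762 to 4768 in DEG. By the edgeR exact test (false discovery rate under 0.05) ALPL and SPARC were higher with serum than in the negative controls. COL1A2 was lower with each compound, and COL1A1 and SPP1 were lower with POG and DEG. The epithelial marker KRT8 was higher with serum and with RES and lower with POG and with DEG. The part of these marker differences in the results below was not tested.

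The members differed widely in abundance. Per kilobase of the longest transcript, FASN was highest in the negative controls at 169 ± 2.32 CPM per kb (SD, n = 2). SCD followed at 158 ± 1.27, ACLY at 139.8 ± 0.365, FADS2 at 105 ± 2.51 and FADS1 at 86.1 ± 0.829 CPM per kb. The cytosolic acetyl-CoA synthetase ACSS2, at 33.2 ± 0.466, and the regulator SREBF1, at 33.0 ± 0.0156, differed by less than the spread between the ACSS2 libraries. ACACA was at 14.1 ± 0.0245, LPIN1 at 12.6 ± 0.264 and ELOVL6 lowest at 6.86 ± 0.371 CPM per kb. With serum the first places changed, as ACLY led at 110.1 ± 0.375 CPM per kb (SD, n = 2), ahead of FASN at 74.0 ± 1.08 and SCD at 68.1 ± 2.04.

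**Figure D1:**
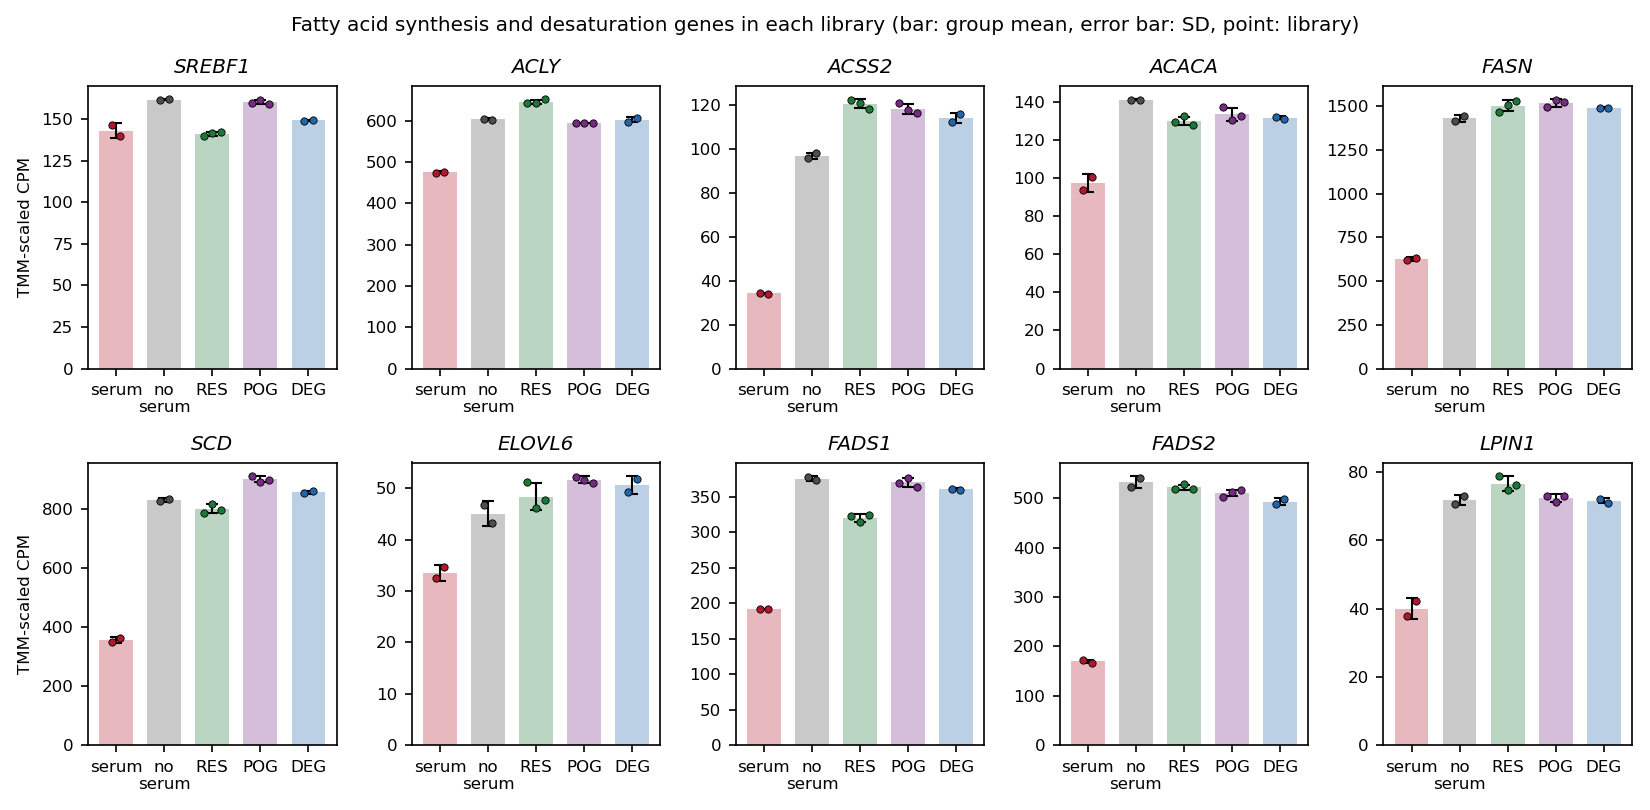
TMM-scaled CPM of the 10 genes in each of the 12 libraries, with a panel and a scale for each gene (bar, group mean; error bar, SD; point, library). The positive controls (serum) are lowest in every panel but that of SREBF1, where RES is lowest, and in the other panels the 4 groups without serum lie closer to each other than to serum.

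The presence of serum was examined first. All 10 members were lower in the positive controls as compared with negative controls, with decreases from 11.5% (SREBF1) to 68.2% (FADS2). By the edgeR exact test at a false discovery rate (FDR) under 0.05, 10 of 10 were called lower, where 42.4% of all tested genes were called in either direction and 20.9% lower. In the 5227 genes within the members' range of abundance (mean 46.6 to 1347 CPM), 64.0% were called. The median log2 fold change of the members was −0.91, and that of all tested genes was −0.0059. In none of the 10 did a library of one group reach the other group, which was also so for 65.6% of all tested genes. Every call was kept without either positive control library, without either negative control library and under the 7 other settings of test, scaling, filter and dispersion.

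The largest decreases were in the desaturases, the synthase and the acetate-activating enzyme. FADS2 (ENSG00000134824.13), which starts the path to polyunsaturated fatty acids, measured 172 and 167 CPM in the positive controls and 524 and 542 CPM in the negative controls. Its log2 fold change was −1.65 (SE 0.031, 95% interval −1.71 to −1.59), with an FDR too small for the software to tell from 0. ACSS2 (ENSG00000131069.19) measured 34.5 and 33.9 CPM with serum and 96.0 and 97.9 CPM without. It was thus 64.7% lower with serum (log2 fold change −1.50, SE 0.043, edgeR FDR 1.47e-231).

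SCD (ENSG00000099194.5), which makes oleate from stearate, measured 349.5 and 365 CPM with serum and 826 and 836 CPM without. FASN (ENSG00000169710.8) measured 619.9 and 633 CPM with serum and 1418 and 1446 CPM without. Serum therefore went with 57.0% less SCD RNA (log2 fold change −1.22, SE 0.029, edgeR FDR 1.13e-249) and 56.3% less FASN RNA (−1.19, SE 0.026, edgeR FDR 5.83e-252). FADS1 (ENSG00000149485.18), which acts after FADS2, measured 192 and 191 CPM with serum against 378 and 373 CPM (log2 fold change −0.97, SE 0.031, edgeR FDR 6.00e-154). LPIN1 (ENSG00000134324.11) measured 37.8 and 42.1 CPM against 70.8 and 72.9 CPM (−0.85, SE 0.049, edgeR FDR 4.51e-60).

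The decreases were smaller in ACACA, ELOVL6, ACLY and the regulator SREBF1. ACACA (ENSG00000278540.4), the committed step, measured 93.8 and 100.6 CPM with serum and 141 and 140.8 CPM without, a decrease of 31.1%. ELOVL6 (ENSG00000170522.9) measured 32.5 and 34.6 CPM against 46.8 and 43.3 CPM, a decrease of 25.6%. ACLY (ENSG00000131473.16) measured 474 and 477 CPM against 605 and 603 CPM, a decrease of 21.2%. Their log2 fold changes were −0.54 (ACACA, edgeR FDR 2.49e-34), −0.43 (ELOVL6, 3.90e-12) and −0.34 (ACLY, 1.91e-23). SREBF1 (ENSG00000072310.16), whose protein is the main activator of fatty acid synthesis genes, had the smallest change. It measured 147 and 140.0 CPM with serum and 162 and 162 CPM without (log2 fold change −0.18, SE 0.035, 95% interval −0.25 to −0.10, edgeR FDR 2.56e-05).

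The second question was what each compound changes in cells without serum. These 3 comparisons share the same 2 negative control libraries. Changes were at most 24.3% in any member and went both ways. In every member but SREBF1 they were smaller than that gene's change with serum, whereas SREBF1 was 12.8% lower with RES and 11.5% lower with serum. With RES 5 of 10 members were called, 2 higher (ACSS2, ACLY) and 3 lower (FADS1, SREBF1, ACACA), where 11.2% of all tested genes and 18.1% of those in the members' abundance range were called. With POG 4 were called and all were higher (ACSS2, ELOVL6, SCD, FASN), where 14.5% of tested genes and 22.6% of those in the range were called. With DEG 4 were called, 2 higher (ACSS2, ELOVL6) and 2 lower (SREBF1, FADS2), where 9.63% of tested genes and 16.0% of those in the range were called. The median log2 fold change of the members was 0.021 with RES, −0.00090 with POG and −0.0030 with DEG.

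**Figure D2:**
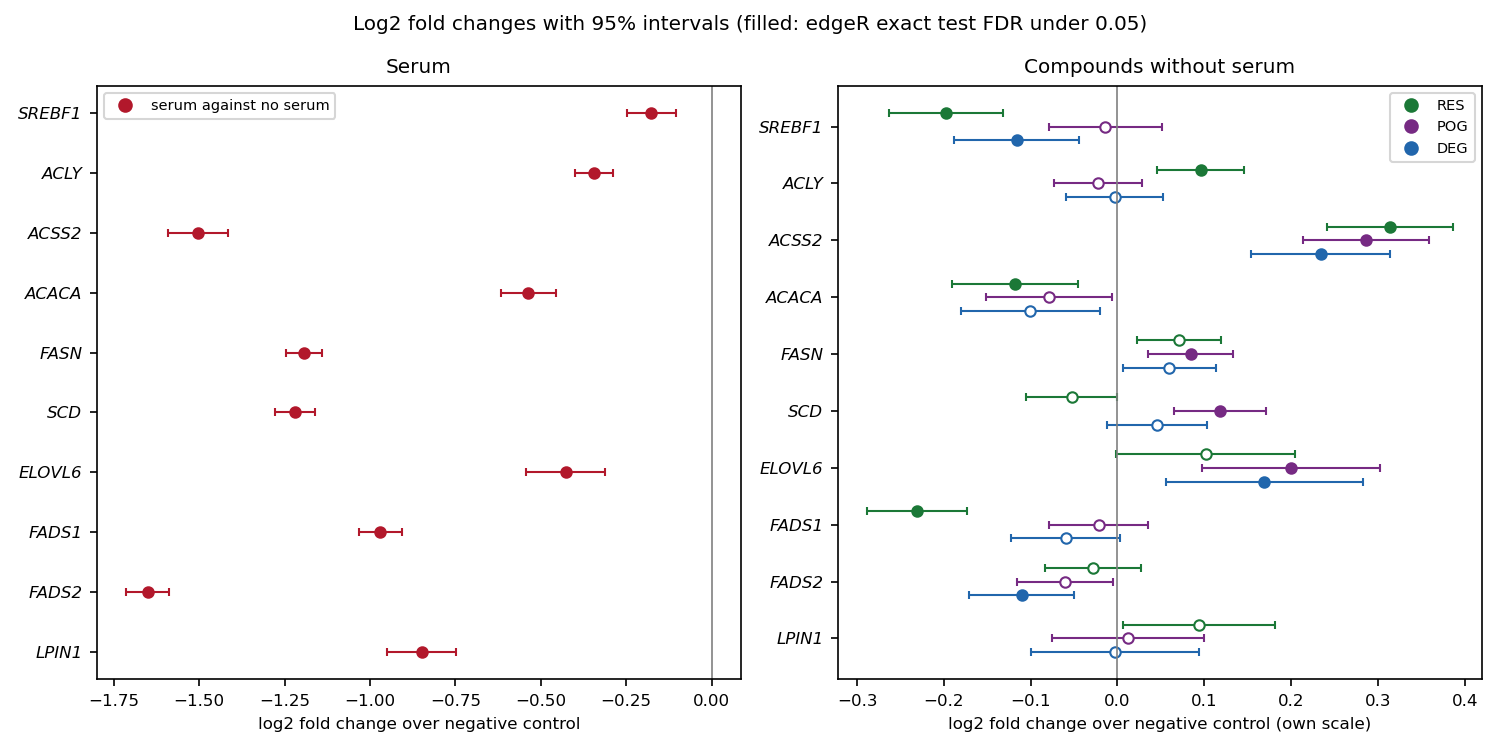
Log2 fold change of each gene over the negative control with its 95% interval, for serum (left) and for the 3 compounds on its own, narrower range of values (right), with filled points for an edgeR exact test FDR under 0.05. All 10 serum points lie left of 0, from −1.65 (FADS2) to −0.18 (SREBF1), and ACSS2 is the gene whose points are filled and right of 0 for all 3 compounds.

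ACSS2, which salvages acetate into acetyl-CoA, was higher with each compound. It measured 122, 121 and 118 CPM with RES, 121, 118 and 116 CPM with POG, and 112 and 116 CPM with DEG, as compared with 96.0 and 97.9 CPM in the negative controls. No library with a compound came down to either negative control. Of all tested genes 40.9% (RES), 44.1% (POG) and 51.8% (DEG) had no overlap with the negative controls in either direction. The increases were 24.3% with RES (0.31 on the log2 scale, SE 0.035, edgeR FDR 9.37e-14), 21.9% with POG (0.29, SE 0.036, FDR 9.69e-12) and 17.6% with DEG (0.23, SE 0.039, FDR 2.12e-06). All 3 calls were kept without any 1 library and under every other setting tried. The direction was opposite to that with serum, where ACSS2 was 64.7% lower.

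FADS1 and SREBF1 were lower with RES. FADS1 measured 322, 314 and 324 CPM with RES against 378 and 373 CPM in the negative controls, a decrease of 14.8% (log2 fold change −0.23, SE 0.028, edgeR FDR 1.60e-10). SREBF1 measured 139.8, 142 and 142 CPM against 162 and 162 CPM, a decrease of 12.8% (−0.20, SE 0.032, edgeR FDR 1.52e-06). Both calls were kept under all 12 alternatives, libraries left out included. FADS2, which neighbours FADS1 and shares 490 exon bases with it on the opposite strand, measured 519, 528 and 519.8 CPM with RES and 524 and 542 CPM without, and was not called (log2 fold change −0.028, 95% interval −0.084 to 0.027). SREBF1 also shares 556 exon bases (6.75%) with RAI1 on the opposite strand, and the strand setting of the counting was not stated, so reads in such stretches cannot be assigned to either gene with certainty.

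The other calls with RES did not survive leaving out single libraries. ACLY measured 643, 642 and 651 CPM with RES against 605 and 603 CPM, 6.86% higher (log2 fold change 0.096, SE 0.025, edgeR FDR 0.0204). ACACA measured 129.6, 132 and 128 CPM against 141 and 140.8 CPM, 7.82% lower (−0.12, SE 0.035, edgeR FDR 0.0260). The ACLY call was lost when any 1 of the 5 libraries was left out (negative control replicate 1, FDR 0.163, or 2, 0.171, and RES replicate 1, 0.0527, 2, 0.0514, or 3, 0.0956). ACACA was no longer called without negative control replicate 1 (0.198) or 2 (0.188) and without RES replicate 1 (0.0812) or 3 (0.119). With no filter neither ACLY (0.0888) nor ACACA (0.0862) was called, and with plain library totals ACACA was not (0.122). The 5 members not called with RES had log2 fold changes from −0.053 (SCD) to 0.10 (ELOVL6), and FASN (0.071, edgeR FDR 0.137) was called with plain library totals (FDR 0.0208) and with dispersions from these groups alone (0.0159).

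With POG the elongase ELOVL6 and the desaturase SCD were higher. ELOVL6 measured 52.3, 51.7 and 51.1 CPM with POG against 46.8 and 43.3 CPM, an increase of 14.8% (log2 fold change 0.20, SE 0.050, edgeR FDR 0.00190). SCD measured 913, 893 and 899 CPM against 826 and 836 CPM, an increase of 8.50% (0.12, SE 0.026, edgeR FDR 0.00350). FASN, the synthase, measured 1495, 1537 and 1523 CPM against 1418 and 1446 CPM, an increase of 6.03% (0.084, SE 0.024, edgeR FDR 0.0497). In each of these genes every POG library exceeded both negative controls, and 44.1% of all tested genes had no overlap between these groups in either direction. The call of ELOVL6 was lost without negative control replicate 2 (FDR 0.173), that of SCD without negative control replicate 1 (0.101), and that of FASN without any 1 of the 5 libraries (negative control replicate 1, 0.368, or 2, 0.129, and POG replicate 1, 0.0702, 2, 0.186, or 3, 0.147). FASN was not called with DESeq2 size factors (0.0509) or with no filter (0.111) either. The 6 members not called had log2 fold changes from −0.079 (ACACA) to 0.012 (LPIN1).

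With DEG, ELOVL6 measured 49.4 and 51.9 CPM against 46.8 and 43.3 CPM, 12.5% higher (log2 fold change 0.17, SE 0.055, edgeR FDR 0.0361). SREBF1 measured 149 and 149.8 CPM against 162 and 162 CPM, 7.72% lower (−0.12, SE 0.035, edgeR FDR 0.0342). FADS2 measured 489 and 498 CPM against 524 and 542 CPM, 7.37% lower (−0.11, SE 0.030, edgeR FDR 0.0246). In none of these 3 genes did the groups overlap, which was also so for 51.8% of all tested genes. ELOVL6 was no longer called without negative control replicate 2 (FDR 0.421) or DEG replicate 1 (0.0713) or 2 (0.359), nor by the edgeR quasi-likelihood test (0.0541), by DESeq2 (0.0547) or with no filter on low counts (0.0534). FADS2 was no longer called without negative control replicate 2 (0.352) or DEG replicate 1 (0.283) or 2 (0.104). SREBF1 was no longer called without any 1 library (negative control replicate 1, 0.189, or 2, 0.214, and DEG replicate 1, 0.237, or 2, 0.181). With plain library totals and with no filter, FADS2 (FDR 0.0765 and 0.107) and SREBF1 (0.0904 and 0.137) were not called either. The 6 members not called had log2 fold changes from −0.10 (ACACA) to 0.059 (FASN).

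The compounds were then set against each other at the same dose, as 3 pairs. POG and RES, an anthocyanin glucoside and a stilbene, differed in 4 of 10 members, where 27.9% of all tested genes and 42.1% of those in the members' abundance range were called. SREBF1 was 13.6% higher with POG than with RES, at 160.2, 162 and 159 CPM against 139.8, 142 and 142 CPM (log2 fold change 0.18, SE 0.028, edgeR FDR 1.00e-07). FADS1 was 15.6% higher, at 369, 377 and 364 CPM against 322, 314 and 324 CPM (0.21, SE 0.025, edgeR FDR 2.05e-11). SCD was 12.6% higher, at 913, 893 and 899 CPM against 788, 819 and 796 CPM (0.17, SE 0.023, edgeR FDR 5.14e-08). ACLY went the other way and was 7.86% lower with POG, at 595, 594 and 595 CPM against 643, 642 and 651 CPM (−0.12, SE 0.022, edgeR FDR 0.000124). In each of the 4 genes the libraries of POG and RES did not overlap, as in 42.1% of all tested genes, and all 4 calls were kept under the 13 alternatives.

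In the other 6 members the 95% interval of the log2 difference between POG and RES reached at most 0.19 above 0 (ELOVL6, 0.0081 to 0.19, edgeR FDR 0.0939) and 0.16 below it (LPIN1, −0.16 to −0.0052, FDR 0.105). For ACSS2, the gene that was higher with both, the interval was −0.091 to 0.036, and for FASN it was −0.030 to 0.057.

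DEG and RES differed in 3 of 10 members, where 21.2% of all tested genes and 33.5% of those in the abundance range were called. FADS1 was 12.6% higher with DEG, at 361 and 359 CPM against 322, 314 and 324 CPM (log2 fold change 0.17, SE 0.028, edgeR FDR 3.28e-06), and this call was kept under all 12 alternatives. SCD was 7.05% higher with DEG, at 854 and 861 CPM against 788, 819 and 796 CPM (0.098, SE 0.026, edgeR FDR 0.0139). ACLY was 6.64% lower with DEG, at 598 and 607 CPM against 643, 642 and 651 CPM (−0.099, SE 0.025, edgeR FDR 0.00825). The SCD call was lost without RES replicate 1 (FDR 0.0825) or 3 (0.0612) and without DEG replicate 1 (0.0986) or 2 (0.159) or any filter (0.0657), and the ACLY call without DEG replicate 1 (0.166) or 2 (0.0570). FADS2 missed the threshold at FDR 0.0522 (log2 difference −0.082, 95% interval −0.14 to −0.027) and was called in 5 of 12 alternatives. The intervals of the other 6 ran from −0.18 (LPIN1) to 0.17 (ELOVL6).

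Between DEG and POG none of the 10 members was called by the edgeR exact test, where 1.05% of all tested genes and 1.82% of those in the range were called. At an unadjusted p under 0.05, which 10.7% of all tested genes passed, there were 2 members, SREBF1 (exact test p = 0.00393, FDR 0.151) and SCD (p = 0.0242, FDR 0.346). The edgeR quasi-likelihood test and DESeq2 called 0 of 10 as well, whereas both SREBF1 (FDR 0.00242) and SCD (0.00104) were called with dispersions from these 2 groups alone. The log2 difference was negative in 9 of 10 members, ACLY being the exception. Its median was −0.034 in the members and 0.00011 in all tested genes, and whether the signs differ from those of other genes was not tested. The 95% intervals ran from −0.17 (SREBF1) to 0.073 (LPIN1) over the 10 genes.

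**Figure D3:**
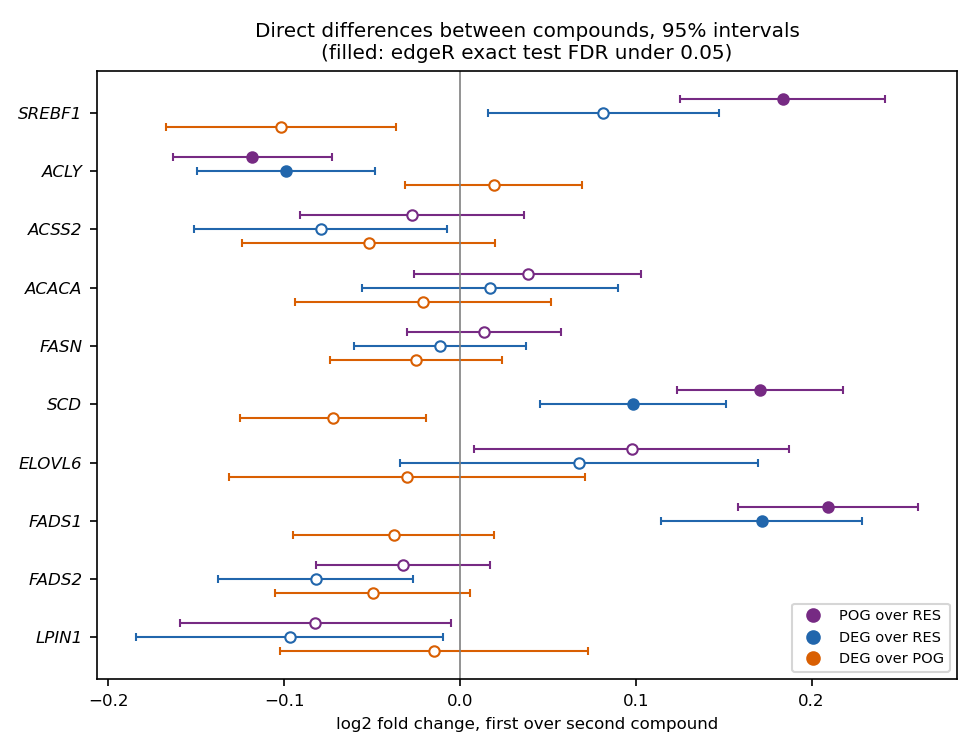
Log2 difference between compounds for each gene with its 95% interval, as POG over RES, DEG over RES and DEG over POG, with filled points for an edgeR exact test FDR under 0.05. SREBF1, SCD and FADS1 lie right of 0 and ACLY left of 0 for POG over RES, FADS1 and SCD again right of 0 for DEG over RES, and no point is filled for DEG over POG.

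The order of the group means differed from gene to gene among the groups without serum. ACLY was highest with RES, followed by the negative controls and DEG, which overlapped, and then POG. SCD ran in the order POG, DEG, negative control and RES. Neighbours did not overlap, but none of these differences was called by the edgeR exact test. The FDR was 0.346 for DEG against POG, 0.508 for DEG against negative control and 0.329 for RES against negative control. In these comparisons 31.9%, 51.8% and 40.9% of all tested genes had no overlap either. FADS1 was highest in the negative controls and POG, which overlapped, then DEG and then RES. FADS2 was highest in the negative controls and RES, which overlapped, then POG and then DEG. LPIN1 ran from RES at 76.7 ± 2.08 CPM (SD, n = 3) to POG, the negative controls and DEG, which overlapped, at 72.4 ± 1.07 (n = 3), 71.8 ± 1.50 (n = 2) and 71.7 ± 0.824 CPM (n = 2). For SREBF1 the positive controls, at 143 ± 4.62 CPM (SD, n = 2), overlapped RES at 141 ± 1.27 CPM (SD, n = 3).

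Over the 12 libraries the log2 CPM of all 45 pairs of members was positively correlated, with Pearson r from 0.13 to 0.994 and a median of 0.947. These values describe libraries of 5 groups in which the 2 positive controls lay far below the rest for most members, so they largely follow that difference. The genes outside the list whose log2 CPM was most like that of FASN over the 12 libraries, among 13396 genes that averaged 1 CPM or more, included FDPS (r = 0.997), HMGCS1 (0.996) and PNPLA3 (0.994). For the mean of the standardised members they included LIPG (0.997), FDPS (0.995), HMGCS1 (0.994) and SV2A (0.993).

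Other lipid genes were read from lists of related pathways. A list of 13 genes held SREBF2, genes that control SREBP activity and other regulators such as MLXIPL. In this list serum went with 2 higher and 4 lower, where 21.4% of all tested genes were called higher and 20.9% lower. The median log2 fold change of the list was 0.00020. INSIG1, which retains SREBP in the endoplasmic reticulum and is itself an SREBP target, was at 270.4 ± 2.36 CPM with serum and 739 ± 17.9 CPM without (SD, n = 2 each), 63.4% lower with serum (log2 fold change −1.45). SREBF2, the regulator of cholesterol genes, was at 322 ± 2.38 CPM against 497 ± 5.97 CPM (−0.63, edgeR FDR 4.35e-66), beside −0.18 for SREBF1. INSIG2 was higher with serum (0.30, edgeR FDR 0.00575), but not when positive control replicate 1 (FDR 0.0877) or negative control replicate 1 (0.256) was left out.

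INSIG1 differed between the compounds. It measured 682 ± 9.20 CPM with RES (SD, n = 3), 909 ± 13.8 with POG (SD, n = 3) and 857 ± 5.18 with DEG (SD, n = 2), as compared with 739 ± 17.9 in the negative controls (SD, n = 2). It was 7.78% lower with RES (edgeR FDR 0.00427, lost without negative control replicate 2, 0.228), 23.1% higher with POG (9.23e-19) and 16.0% higher with DEG (5.53e-08). Set directly against RES, it was higher by 0.42 on the log2 scale with POG (edgeR FDR 1.71e-46) and by 0.33 with DEG (FDR 1.42e-23). SREBF2 was lower with RES (log2 fold change −0.17, edgeR FDR 1.06e-05). Of the 13 genes of the SREBP list RES had 0 higher and 2 lower, POG 2 higher and 0 lower, and DEG 3 higher and 0 lower. The shares of all tested genes called higher and lower were 4.94% and 6.21% with RES, 5.93% and 8.57% with POG, and 3.52% and 6.11% with DEG. The number called from the list was 1 without negative control replicate 2 for RES and 1 without negative control replicate 1 for DEG. MLXIPL, a carbohydrate-responsive activator of lipogenic genes, was higher with POG (2.78 against 1.76 CPM, edgeR FDR 0.00496, lost without negative control replicate 2, 0.147) and with DEG (2.67 CPM, FDR 0.0385). The latter did not hold without negative control replicate 1 (0.0976) or 2 (0.294) or DEG replicate 1 (0.6498). MLXIPL with DEG was also not called by the quasi-likelihood test (0.0681), by DESeq2 (0.08365) or with no filter (0.07255). INSIG2 was higher with DEG (0.36, edgeR FDR 0.00346), which did not hold without negative control replicate 1 (0.264) or DEG replicate 2 (0.0758).

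Cholesterol synthesis and uptake is the other main branch of SREBP targets. With serum its median log2 fold change was −1.30, and 21 of 22 genes were called lower, where 20.9% of all tested genes were. The exception, named after its values were seen, was PMVK (16.5 against 15.7 CPM, edgeR FDR 0.602). HMGCS1, an early enzyme of the mevalonate path, measured 47.9 ± 0.443 CPM with serum and 318 ± 3.37 CPM without (SD, n = 2 each, log2 fold change −2.73). MSMO1, a later enzyme of cholesterol synthesis, measured 64.6 ± 2.69 CPM against 219 ± 7.57 CPM (−1.76). With the compounds 4 of the 22 were higher and 1 lower with RES, 12 were higher with POG and 14 with DEG, with none lower for the latter 2. Of all tested genes 4.94% were called higher and 6.21% lower with RES, 5.93% higher with POG and 3.52% higher with DEG. MVD, which makes isopentenyl diphosphate, was higher with RES (log2 fold change 0.23, edgeR FDR 6.08e-07), POG (0.35, 3.34e-17) and DEG (0.29, 3.16e-09). Left out in turn, negative control replicate 1 lowered the number called from 5 to 1 for RES, from 12 to 9 for POG and from 14 to 8 for DEG.

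The remaining genes of fatty acid synthesis, elongation and activation, 30 in number of which 27 were tested, went both ways with serum. In these 4 were higher and 10 lower, where 21.4% of all tested genes were called higher and 20.9% lower. The median log2 fold change of the list was −0.15, beside −0.91 for the members. Without negative control replicate 1 the number called from the list was 9 in place of 14. The largest called changes were in low genes, the elongases ELOVL7 (0.804 against 1.86 CPM, log2 fold change −1.21, edgeR FDR 5.99e-05) and ELOVL3 (1.67 against 2.81 CPM, −0.76, FDR 0.000182) and the mitochondrial carboxylase ACACB (3.90 against 5.84 CPM, −0.59, FDR 0.00138). ACACB was no longer called without positive control replicate 1 (FDR 0.122) or negative control replicate 1 (0.109). With RES 2 were higher and 2 lower, where 4.94% of all tested genes were called higher and 6.21% lower. The 2 lower included SLC25A1, which exports the citrate that ACLY cleaves, at 106 ± 3.59 CPM against 123 ± 1.91 CPM (log2 fold change −0.22, edgeR FDR 1.41e-05).

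ME1, an NADPH source for fatty acid synthesis, was also lower with RES (−0.25, edgeR FDR 0.00108, lost without negative control replicate 2, 0.109). ACSS3, a mitochondrial relative of ACSS2, was higher with RES from a low level (1.32 against 0.6997 CPM, FDR 0.0196). ACSS3 was no longer called without negative control replicate 1 (0.243) or 2 (0.0956) or RES replicate 1 (0.120) or 3 (0.0641), and DESeq2 gave no FDR for it. With POG 3 were higher and 1 lower, where 5.93% of all tested genes were called higher and 8.57% lower. The 3 included ELOVL5 (0.15, edgeR FDR 0.00181, lost without negative control replicate 1, 0.0700) and MECR (0.22, FDR 0.0148, lost without negative control replicate 1, 0.158, or 2, 0.0908, or POG replicate 3, 0.0641). FADS3, a relative of FADS1 and FADS2, was 10.8% lower with POG (−0.16, FDR 0.000336) and was the gene of the list called with DEG (−0.12, FDR 0.0364). With DEG 9.63% of all tested genes were called. The FADS3 call with DEG was lost without any 1 of the 4 libraries (negative control replicate 1, 0.270, or 2, 0.143, and DEG replicate 1, 0.1898, or 2, 0.234). It was also lost with plain library totals (0.0932) and with no filter (0.1055). The number called from this list fell to 1 without negative control replicate 2 for RES (from 4) and without negative control replicate 1 for POG (from 4).

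Genes that use or burn fatty acids went both ways as well. Of 14 genes of glycerolipid synthesis and storage, 4 were higher and 4 lower with serum, where 21.4% of all tested genes were called higher and 20.9% lower. PLIN2, a lipid droplet coat protein, measured 115 ± 4.79 CPM with serum and 90.1 ± 0.0354 without (SD, n = 2 each, log2 fold change 0.35, edgeR FDR 1.12e-13), opposite to the members. PLIN2 was lower with RES (76.9 ± 2.47 CPM, SD, n = 3, −0.23, FDR 2.96e-06) and with POG (80.0 ± 1.46 CPM, SD, n = 3, −0.17, FDR 0.000787). PLIN3 was higher with serum (0.34, FDR 4.10e-15) and AGPAT4, an acyltransferase, lower (−0.41, FDR 4.46e-14). In all, RES had 0 higher and 2 lower and POG 2 higher and 2 lower. The shares of all tested genes called higher and lower were 4.94% and 6.21% with RES and 5.93% and 8.57% with POG. DEG had 0 of 14 by the edgeR exact test, the quasi-likelihood test and DESeq2, where the exact test called 9.63% of all tested genes. At an unadjusted exact test p under 0.05, which 20.7% of all tested genes passed with DEG, there were 2 of 14. For POG the number called from the list was 1 without negative control replicate 2, and for RES it was 1 without negative control replicate 1 or 2 or RES replicate 1 or 2, since AGPAT5 (−0.17, FDR 0.0424) was then no longer called (FDR 0.192, 0.269, 0.238 and 0.106). AGPAT5 with RES was also not called by the quasi-likelihood test (0.0627), by DESeq2 (0.0705), with plain library totals (0.104) or with no filter (0.0816).

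Of 19 tested genes of fatty acid oxidation (21 listed), 4 were higher and 6 lower with serum, beside 21.4% and 20.9% of all tested genes. CPT1A, which admits long-chain acyl groups to mitochondria, was lower with serum (54.1 ± 4.55 against 74.0 ± 0.486 CPM, SD, n = 2 each, log2 fold change −0.45, edgeR FDR 2.31e-15) and with each compound. It was 21.7% lower with RES (FDR 1.49e-10), 15.6% lower with POG (FDR 2.25e-05) and 13.2% lower with DEG (FDR 0.00390, lost without negative control replicate 1, 0.0690, or DEG replicate 2, 0.184). ECI2 (0.78, FDR 1.19e-56) and PPARD (0.45, FDR 8.79e-20) were higher with serum. RES had 1 higher and 3 lower, the latter including ACADVL (−0.25, FDR 2.23e-10) and ACAA2 (−0.24, FDR 7.44e-05), which act within beta oxidation. POG had 1 higher, HADHB (0.16, FDR 0.00359, lost without negative control replicate 1, 0.145), and 2 lower, and DEG had 1 lower, which was CPT1A. Beside these counts, the shares of all tested genes called higher and lower were 4.94% and 6.21% with RES, 5.93% and 8.57% with POG, and 3.52% and 6.11% with DEG.

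**Figure D4:**
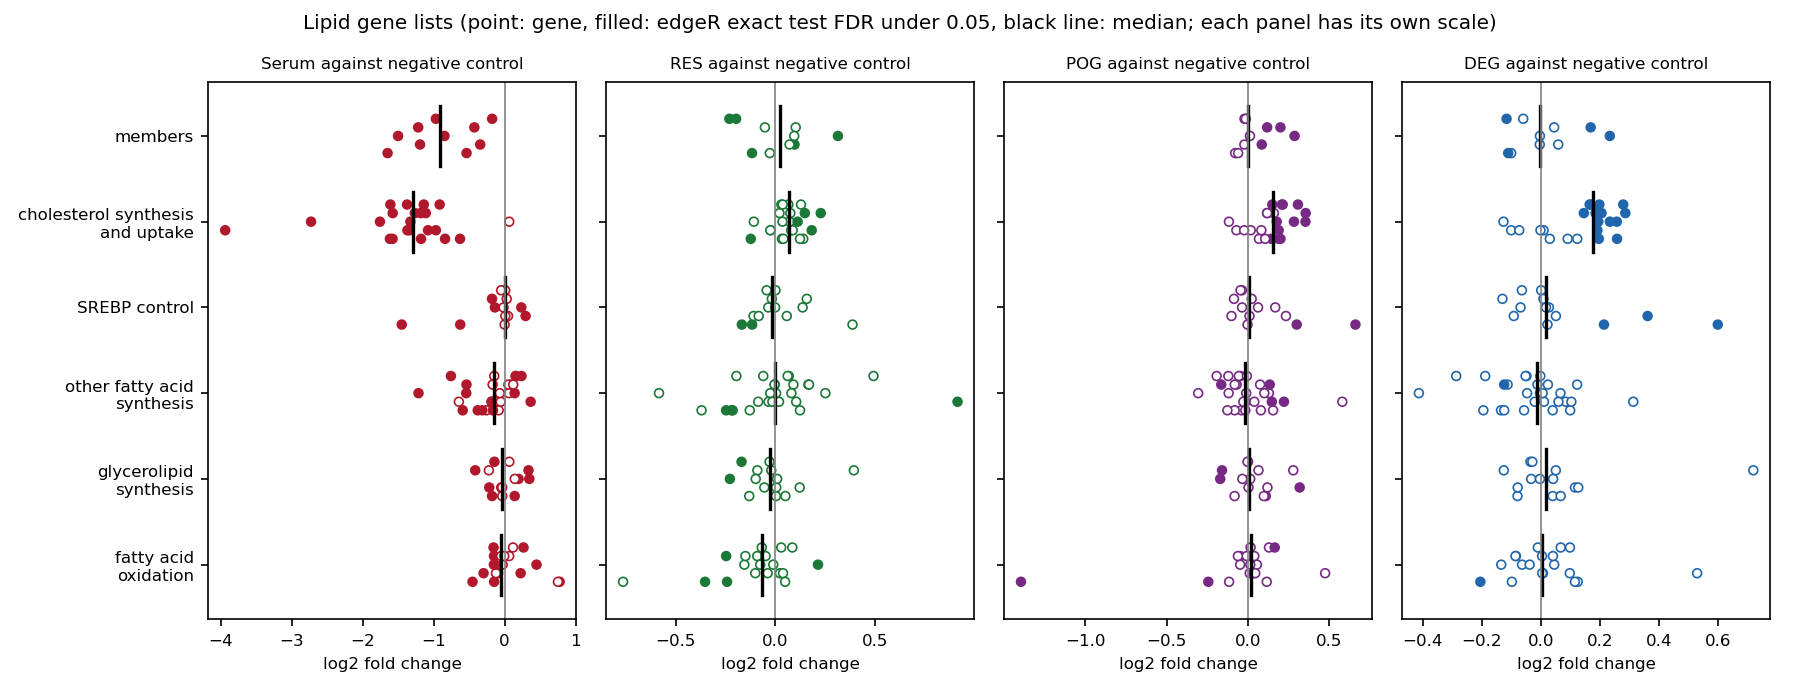
Log2 fold change over the negative control of the 10 members and of the genes of 5 other lipid lists, with a panel and a scale for each comparison (point, gene; filled, edgeR exact test FDR under 0.05; black line, median of the list). With serum the medians of the members (−0.91) and of the cholesterol genes (−1.30) lie well left of 0, and with POG and DEG the cholesterol median (0.15 and 0.18) lies right of 0 while that of the members is near 0.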

How the data were processed

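Poly(A) RNA of hFOB 1.19 cells was sequenced as read pairs. The authors deposited raw read counts per Ensembl gene, which they made by alignment to hg38 with STAR and counting with featureCounts (versions not given in the sources used here, nor the strand setting). The table held 12 of the 13 labelled samples, and every column belonged to one. Groups came from the labels, and replicate numbers only name libraries. Symbols matched 43177 of 43836 genes. From the deposited counts filterByExpr kept 17092 genes with 99.967% of the reads. After TMM scaling, with dispersions from all 12 libraries together (common biological coefficient of variation 3.21%), groups were compared with the exact test of edgeR 4.0.16 in R 4.3.3, the test the study names, with Benjamini-Hochberg adjustment over all 17092 genes and calls at FDR under 0.05. edgeR's quasi-likelihood fit gave standard errors and 95% intervals. CPM per kb used the longest GENCODE v44 transcript. Log2 CPM for likeness had a prior count of 2. The test was also run on simulated data with 200 changed genes, the outcome of which is not reported here.

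The members and lists were chosen with earlier results of these data known. Every member is named, together with at most the 3 called genes of largest absolute log2 fold change per list and comparison with the negative control (mean of at least 1 CPM), and genes among the 5 most like FASN and the member mean. Some of the genes so chosen are not reported here, although list counts and medians include them. The tests were repeated with edgeR's quasi-likelihood method, with DESeq2 1.42.0, with 2 other scalings, 2 other filters, other dispersions, an FDR of 0.01 and leaving out each library.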

Additional observations from a re-analysis of the deposited data

How the results depend on the processing

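All 10 calls with serum were kept under every alternative, and the 4 calls of POG against RES were kept under all 13, with 4 to 5 members called when a library was left out. Of 830 member values under alternatives 766 stayed on the same side of the threshold, 45 fell short of it and 19 newly passed it. Among the 766, 12 changed sign with no call in either fit, and no other value changed sign. For RES the number of members called was 5, with 3 at an FDR of 0.01, 3 with no filter on low counts, 6 with dispersions from the groups compared and 3 to 4 with a library left out. For POG it was 4, with 2 to 3 with a library left out, and 6 with dispersions from the groups compared. For DEG it was 4, with 1 at an FDR of 0.01, 2 with plain library totals, 1 with no filter, 6 with dispersions from the groups compared and 1 to 3 with a library left out. For DEG against RES it was 3, with 7 with dispersions from the groups compared and 1 to 3 with a library left out, and for DEG against POG it was 0, with 2 with dispersions from the groups compared. The cause of these changes was not tested, except that leaving out a library also leaves fewer samples. The scalings moved the median log2 fold change of all genes by at most 0.043. The lists around the members were recomputed under the same alternatives, which were added for them after seeing the data. No paired analysis was possible because the labels number no replicates, and the numbers used here only name libraries in accession order. Groups of 2 or 3 libraries limit precision.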
